A study of Mus musculus with 7 samples.

Results

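The 10 genes described here encode C-type lectin receptors of myeloid cells: Clec4d, Clec4e, Clec4n, Clec5a, Clec7a, Clec4a2, Clec12a, Clec4a1, Clec4a3 and Clec10a. They were taken by symbol from the platform annotation, each had exactly 1 probe set with its symbol alone, and they are 10 of 22180 named genes on the array. Macrophages were sorted from the lamina propria of the mouse colon as CD45+ CD11b+ CD64+ MHCII+ Ly6C- cells, and the total RNA of each of 7 samples was hybridised to 1 Affymetrix Mouse Gene 2.0 ST array. All mice had colitis from 5% dextran sulphate sodium (DSS) in 5 days of treatment and 3 days of normal water, and all carried the floxed allele pair Rictorfl/fl. Rictor encodes a subunit of mTORC2, a kinase complex that phosphorylates AKT. The 3 control samples were LysM+/+, without cre, and the other 4 were LysM+/cre, with cre recombinase on 1 LysM (Lyz2) allele, which is active in macrophages, monocytes and neutrophils. The labels name neither age, sex nor background strain, and they do not say whether a sample came from 1 mouse or from pooled mice, so p-values measure only the spread between these samples, part of which may be technical. No group carried cre without floxed Rictor, so cre, its insertion in Lyz2 and loss of Rictor cannot be told apart.

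C-type lectin receptors are transmembrane proteins that bind sugars, glycolipids or products of dying cells through an extracellular lectin domain. Activating members signal through the tyrosine kinase SYK, either by pairing with the adaptor FcR-gamma (Fcer1g) or DAP12 (Tyrobp) or through a single tyrosine motif of their own, and then through CARD9 to NF-kB. Inhibitory members carry a tyrosine motif, the ITIM, that recruits the phosphatases SHP-1 (Ptpn6) and SHP-2 (Ptpn11). In the gut, these receptors are known for sensing fungi, mycobacteria, bacteria and damaged cells.

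None of the 10 lectins passed an adjusted p of 0.05 between the genotypes in limma (linear models with moderated variance), where 0% of the 22180 genes did. At an unadjusted p under 0.05 limma had 11.5% of all genes. As values, 9 of the 10 averaged higher on the LysM+/cre arrays and Clec10a averaged lower, where 51.4% of all genes averaged higher and 48.6% lower. A mean at least 1.5-fold higher with cre was found for 2 lectins, Clec12a and Clec4a3, against 1.27% of all genes, and at least 1.5-fold lower for 1, Clec10a, against 2.55% (3.82% in either direction). The median log2 difference, LysM+/cre minus LysM+/+, was 0.36 for the 10 lectins and 0.0044 for all genes. It was 0.39 for the 5 activating lectins, 0.72 for the 2 inhibitory ones and 0.25 for the other 3, Clec4a1, Clec4a3 and Clec10a, whose mean was -0.056. With the same unadjusted threshold, 4 of 10 were higher (Clec4n, Clec5a, Clec4a1 and Clec4a3), against 6.56% of all genes, and 0 were lower, against 4.93%. That count was 2 when LysM+/+ array 2, LysM+/+ array 3 or LysM+/cre array 2 was left out, where the share of all genes, 11.5% with all arrays, was 9.96%, 8.76% and 9.49%. With a monocyte marker score of each array as a covariate 1 lectin and 4.19% of all genes had such a p, and with a fibroblast and muscle score 2 lectins and 6.06% of all genes, so calls were fewer over the whole array as well. Neither score overlapped between the genotypes, and with either as a covariate the SE of each lectin's difference was larger than without a covariate. With a neutrophil score, which overlapped between the genotypes, 5 lectins and 11.7% of all genes had such a p. Clec4n, Clec7a, Clec12a and Clec4a3 were higher with cre in that fit and Clec10a lower. Its SE was larger for Clec4n, Clec4a2 and Clec4a1 and smaller for the other lectins than without a covariate. The part of these scores in the differences was not tested. For 3 of the 10 no array of one genotype fell within the range of the other, against 8.79% of all genes: Clec4a1 and Clec4a3 were higher with cre (5.23% of all genes) and Clec10a lower (3.56%). With 1 array fewer, such a separation is more frequent for any gene: it held for 5 lectins and 20.1% of all genes without LysM+/+ array 1, and for 5 lectins and 13.4% of all genes without LysM+/cre array 3. In bulk samples such as these, fewer cells of a type and less RNA per cell cannot be told apart.

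**Figure D1:**
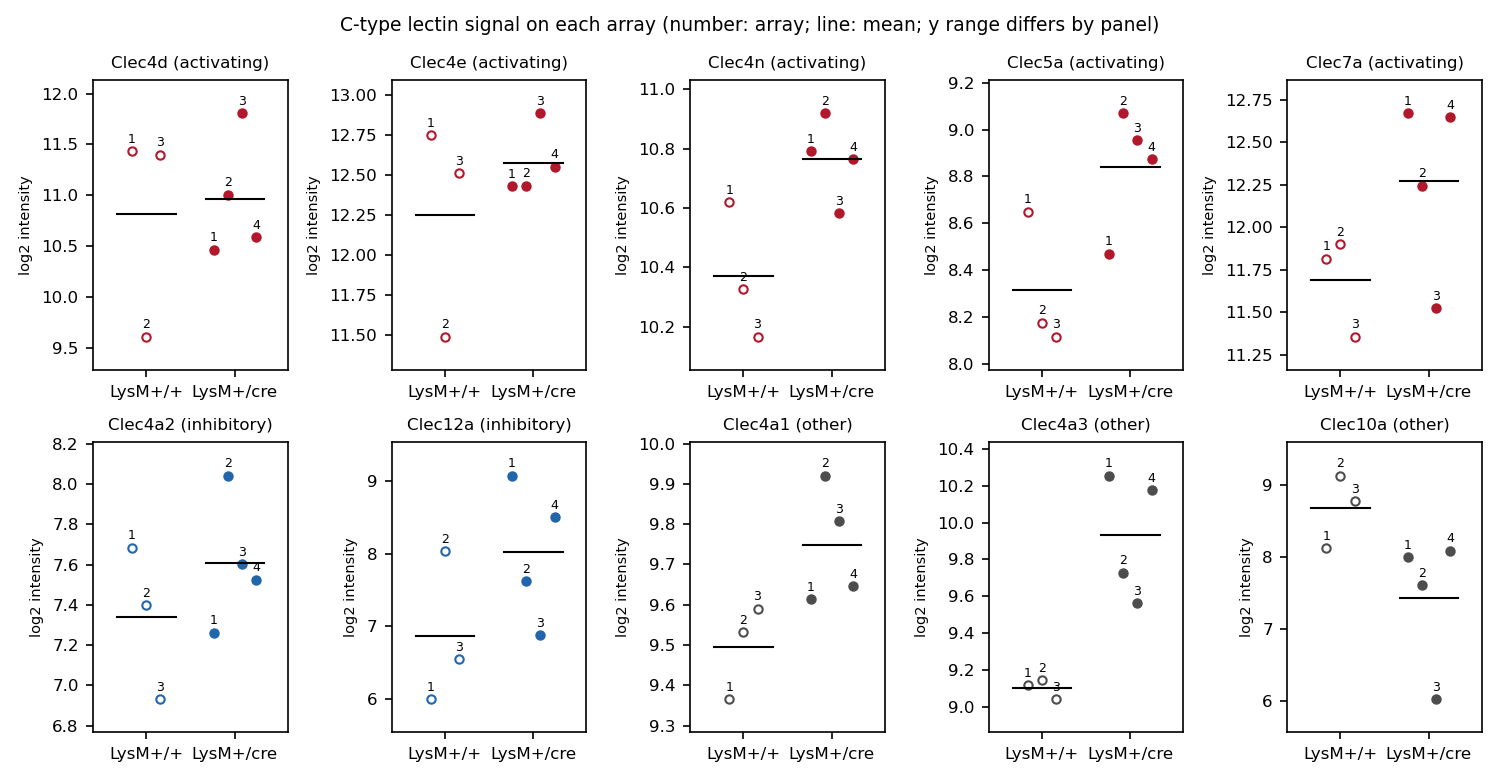
Log2 intensity of each of the 10 lectins (vertical axis, range differs by panel) on the 3 LysM+/+ arrays (open) and the 4 LysM+/cre arrays (filled), numbered by array, with the group mean as a line. The 2 groups are apart without overlap for Clec4a1, Clec4a3 and Clec10a, and the last is the panel with the lower LysM+/cre mean.

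The values across all features were on a common scale, with array medians between 5.16 and 5.22 on the log2 scale and array profiles correlating at 0.968 to 0.982. Rictor itself lay at 7.74 to 7.80 on the LysM+/+ arrays and at 7.72 to 8.25 on the LysM+/cre arrays, and whether its probe set lies in the deleted part is not known, so it does not check the labels. Lyz2, the cre-bearing locus, lay at 10.11 to 10.36 and at 9.77 to 10.24. Of the genes of the sort, Ptprc (CD45) lay at 10.85 to 11.01 without cre and at 11.01 to 11.35 with cre. Its log2 difference was 0.25 ± 0.11 (SE, adjusted p = 0.438 in limma). The macrophage gene Adgre1, not a marker of the sort, lay at 9.87 to 10.75 over the 7 arrays, with a difference of 0.17 ± 0.26 (SE). Fcgr1, which encodes the sort marker CD64, lay at 9.49 to 10.28 without cre and at 10.28 to 11.10 with cre, a log2 difference of 0.97 ± 0.26 (SE, adjusted p = 0.362 in limma). Itgam (CD11b) lay at 11.20 to 11.76 and at 11.68 to 12.29, a difference of 0.53 ± 0.19 (SE, adjusted p = 0.415). Marker scores of other cells, the mean log2 deviation of a marker list from its mean over the 7 arrays, differed between arrays. The score of 16 monocyte genes ran from -0.71 to -0.22 without cre and from 0.061 to 0.57 with cre, with no overlap. Of these genes 12 averaged higher with cre and 4 lower, with log2 differences from -1.08 to 2.36. The 1 of the 16 whose own arrays did not overlap (8.79% of all genes), F13a1, was lower with cre. For 20 neutrophil genes the range was -1.17 to 0.35 without cre and -0.24 to 1.26 with cre, with LysM+/+ array 2 lowest and LysM+/cre array 3 highest. Of the monocyte list, Chil3, whose difference was the largest at 2.36, and Hp had the same lowest and highest array. The part of neutrophil RNA in the monocyte score was not tested. Over the 7 arrays the neutrophil genes Ly6g, S100a8 and Csf3r ran from 3.86 to 8.10, 4.74 to 9.87 and 9.56 to 10.45. The monocyte gene Ly6c2, of the Ly6C that the sort left out, lay at 6.87 to 7.70 without cre and at 7.69 to 9.30 with cre. Its difference was 1.09 ± 0.41 (SE, adjusted p = 0.415 in limma), and that of Ly6c1 was -0.090. The MHC class II genes H2-Ab1, H2-Aa and H2-Eb1 differed by -0.044, -0.058 and -0.063 and were lowest on LysM+/cre array 3. The score of 20 fibroblast and muscle genes was 0.21 to 0.23 without cre and -0.35 to 0.13 with cre. In this list 4 genes averaged higher with cre and 16 lower, with log2 differences from -1.375 to 0.19. In the remaining lists the groups overlapped, with score differences of -0.25 for dendritic cells, 0.026 for eosinophils and mast cells, -0.13 for endothelium, -0.31 for epithelium, -0.082 for T and NK cells, 0.033 for B and plasma cells and -0.091 for 18 macrophage markers. The last is a mean over differences of both signs: 7 markers averaged higher with cre and 11 lower, from -0.96 to 0.97. For 3 of the 18 the arrays did not overlap (8.79% of all genes), 0 higher with cre (5.23%) and 3 lower (3.56%). These were Timd4 at -0.96, Cd163 at -0.90 and Cd68 at -0.20. A log2 intensity has no zero and no background level was given, so no marker can be called absent.

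Among the activating lectins, Clec4d and Clec4e are neighbours on chromosome 6 with no protein-coding gene between them in the RefSeq gene table. Clec4d encodes MCL and Clec4e encodes Mincle, receptors for mycobacterial glycolipid that work with FcR-gamma. Clec4d read 11.43, 9.61 and 11.40 on LysM+/+ arrays 1 to 3 and 10.47, 11.01, 11.80 and 10.59 on LysM+/cre arrays 1 to 4. Clec4e read 12.75, 11.49 and 12.51 without cre and 12.43, 12.43, 12.89 and 12.55 with cre. Both were lowest on LysM+/+ array 2 and highest on LysM+/cre array 3, the arrays with the lowest and the highest neutrophil score, and the genotypes overlapped. The part of neutrophil RNA in either value was not tested. The log2 difference of Clec4d was 0.15 ± 0.53 (SE, adjusted p = 0.925), with a 95% interval from -1.10 to 1.41. For Clec4e it was 0.33 ± 0.30 (SE, adjusted p = 0.693), with an interval from -0.39 to 1.04. Neither direction held throughout: without LysM+/+ array 2 the differences were -0.45 and -0.057, and without LysM+/cre array 3 that of Clec4d was -0.12. With the neutrophil score as a covariate the difference of Clec4d was -0.46 (SE 0.22) and that of Clec4e 0.0091 (SE 0.19).

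The promoters of this pair are shown because both genes had the same lowest and highest array, and that of Clec12a because its order over the arrays was another. The windows run from 250 bases before to 50 after the start of the gene in RefSeq, build GRCm38.p6, and read 5′ to 3′ on the strand of the gene. Clec4d lies at chr6:123261857-123262156 on the plus strand, Clec4e at chr6:123289822-123290121 on the minus strand and Clec12a at chr6:129349994-129350293 on the plus strand. Capitals mark matches, on either strand, to GAGGAA (the core bound by PU.1, the myeloid ETS factor), TTGCNNAA (a C/EBP site), TGANTCA (AP-1), GGG with CC after 5 bases of any kind (NF-kB) and GTAAACA (FoxO).
Clec4d: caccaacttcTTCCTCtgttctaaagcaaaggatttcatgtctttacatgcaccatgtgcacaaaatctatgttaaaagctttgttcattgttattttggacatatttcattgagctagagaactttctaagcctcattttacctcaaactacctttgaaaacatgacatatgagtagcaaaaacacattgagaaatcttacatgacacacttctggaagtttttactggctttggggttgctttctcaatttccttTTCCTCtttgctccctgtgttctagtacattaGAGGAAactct
Clec4e: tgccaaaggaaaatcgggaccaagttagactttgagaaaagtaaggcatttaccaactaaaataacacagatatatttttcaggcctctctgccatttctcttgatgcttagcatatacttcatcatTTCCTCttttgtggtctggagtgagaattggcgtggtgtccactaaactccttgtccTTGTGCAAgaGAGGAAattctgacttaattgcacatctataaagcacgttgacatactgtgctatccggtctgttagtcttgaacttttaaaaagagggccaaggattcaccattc
Clec12a: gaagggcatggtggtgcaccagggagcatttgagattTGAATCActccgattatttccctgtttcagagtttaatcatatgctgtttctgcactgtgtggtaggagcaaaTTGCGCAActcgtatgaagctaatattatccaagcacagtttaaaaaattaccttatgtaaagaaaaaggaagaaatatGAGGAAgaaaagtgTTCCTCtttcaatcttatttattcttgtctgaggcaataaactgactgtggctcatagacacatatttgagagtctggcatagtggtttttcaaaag
The Clec4d window held 3 matches to the PU.1 core and none to the other motifs. In the Clec4e window there were 2 PU.1 matches and 1 C/EBP match. Clec12a had 2 PU.1 matches, 1 C/EBP match and 1 AP-1 match. Of the 10 lectins 8 had a window in the table, all but Clec4n and Clec10a. GAGGAA was found for 7 of these 8, the exception being Clec4a2, where 28.3% of 32851 windows of that length over all genes held it. TTGCNNAA was found for 2 (10.8% of all windows), TGANTCA for 2 (7.81%), the NF-kB motif for 1 (50.8%) and GTAAACA for 0 (3.65%). Clec4a3 and Clec7a had 2 windows each and were counted once if either held the motif. A match is a stretch of letters and not a measured binding site.

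Clec4n encodes Dectin-2, a receptor for fungal mannan that also uses FcR-gamma, and it lies next to Clec4d. Its signal was 10.62, 10.33 and 10.17 without cre and 10.79, 10.92, 10.58 and 10.76 with cre. The groups overlapped only through LysM+/+ array 1 and LysM+/cre array 3, which lay 0.037 apart. The log2 difference was 0.39 ± 0.13 (SE, adjusted p = 0.401), a 1.31-fold higher mean, and with any 1 array removed it stayed between 0.29 and 0.52. It was 0.26 (SE 0.26) with the monocyte score and 0.61 (SE 0.20) with the fibroblast and muscle score as a covariate. Although Clec4n sits beside Clec4d, its order over the arrays was another: LysM+/cre array 3, the highest for Clec4d, was the lowest LysM+/cre array for Clec4n.

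Clec5a encodes MDL-1, a receptor that signals through DAP12 and is known for its part in myeloid inflammation. It read 8.65, 8.18 and 8.12 without cre and 8.47, 9.07, 8.95 and 8.87 with cre. LysM+/cre array 1 lay below LysM+/+ array 1, and the other 3 LysM+/cre arrays lay above all LysM+/+ arrays. Its log2 difference was 0.53 ± 0.18 (SE, adjusted p = 0.408), or 1.44-fold, and 0.43 to 0.70 with any 1 array removed. As a covariate, the neutrophil score gave 0.40 (SE 0.18), the monocyte score 0.71 (SE 0.37) and the fibroblast and muscle score 0.81 (SE 0.30).

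Clec7a encodes Dectin-1, the receptor for fungal beta-glucan, which carries its own tyrosine motif for SYK. Its values on the LysM+/+ arrays were 11.82, 11.90 and 11.36, and those on the LysM+/cre arrays 12.67, 12.25, 11.53 and 12.65. LysM+/cre arrays 1, 2 and 4 lay above all LysM+/+ arrays, and LysM+/cre array 3 lay within their range. The log2 difference was 0.58 ± 0.30 (SE, adjusted p = 0.498), with an interval from -0.13 to 1.29. Leaving out LysM+/cre array 3 gave 0.83. With a score as a covariate it was 0.11 (SE 0.58, monocyte), 0.86 (SE 0.23, neutrophil) and 0.83 (SE 0.52, fibroblast and muscle).

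Of the inhibitory lectins, Clec12a encodes MICL, an ITIM receptor for uric acid crystals and dead cells. It lies with Clec7a in a second lectin cluster of chromosome 6, with 4 genes between them, Clec12b, Clec1b, Clec9a and Clec1a. Clec12a read 5.996, 8.04 and 6.54 on the LysM+/+ arrays and 9.07, 7.62, 6.87 and 8.504 on the LysM+/cre arrays. This span of 3.08 log2 units over the 7 arrays was wide within both groups, and LysM+/+ array 2 lay above 2 LysM+/cre arrays. Between the means the log2 difference was 1.16 ± 0.66 (SE, adjusted p = 0.533), a 2.23-fold higher mean, and its interval ran from -0.40 to 2.72. It was 1.75 without LysM+/+ array 2 and 0.73 without LysM+/+ array 1. With the neutrophil score as a covariate it was 1.94 (SE 0.24, adjusted p = 0.225). The monocyte score gave 1.04 (SE 1.36) and the fibroblast and muscle score 1.02 (SE 1.18).

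Clec4a2 encodes DCIR, the ITIM receptor of dendritic cells and macrophages. On the LysM+/+ arrays it read 7.68, 7.40 and 6.93, and on the LysM+/cre arrays 7.26, 8.04, 7.60 and 7.53. LysM+/cre array 2 was highest and LysM+/+ array 3 lowest, with the other arrays of both genotypes between them. The log2 difference of 0.27 ± 0.23 (SE, adjusted p = 0.667) was 0.067 without LysM+/+ array 3 and 0.44 without LysM+/+ array 1. As a covariate, the neutrophil score gave 0.20 (SE 0.27), the monocyte score 0.65 (SE 0.44) and the fibroblast and muscle score 0.75 (SE 0.33).

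Clec4a1 and Clec4a3 encode relatives of DCIR and are neighbours in the same cluster, with Clec4a4 and Clec4b1 between Clec4a3 and Clec4a2. The sequences of this family are alike, and the labels do not say whether the probe sets share targets, so their values may not be independent. Clec4a3 read 9.12, 9.15 and 9.04 without cre and 10.25, 9.73, 9.56 and 10.18 with cre. Every LysM+/cre array lay above every LysM+/+ array, and the SD was 0.0534 (n = 3) without cre and 0.337 (n = 4) with cre. The log2 difference was 0.83 ± 0.18 (SE, adjusted p = 0.333), or 1.77-fold, with an interval from 0.41 to 1.25. Removing any 1 array gave 0.72 to 0.95. With the monocyte score as a covariate the difference was 0.40 (SE 0.31, adjusted p = 0.944). It was 0.98 (SE 0.16) with the neutrophil score and 0.75 (SE 0.32) with the fibroblast and muscle score. Clec4a1 read 9.37, 9.53 and 9.59 without cre and 9.61, 9.92, 9.81 and 9.65 with cre. Its groups were apart by 0.024 between LysM+/+ array 3 and LysM+/cre array 1, and overlapped after quantile normalization. In limma the log2 difference was 0.25 ± 0.099 (SE, adjusted p = 0.422), or 1.19-fold. With a score as a covariate it was 0.46 (SE 0.18, monocyte), 0.39 (SE 0.16, fibroblast and muscle) and 0.24 (SE 0.12, neutrophil). The order of the LysM+/cre arrays was not shared by the pair: arrays 1 and 4 were the highest for Clec4a3 and the lowest for Clec4a1.

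Clec10a encodes MGL, a lectin that is used as a marker of alternatively activated macrophages and of some dendritic cells. It is the member on chromosome 11, next to its paralog Mgl2. Its signal was 8.12, 9.13 and 8.78 on the LysM+/+ arrays and 7.99, 7.60, 6.02 and 8.09 on the LysM+/cre arrays. All LysM+/cre arrays lay below all LysM+/+ arrays, by 0.0315 at the nearest, and LysM+/cre array 3 lay far below the rest. The log2 difference was -1.25 ± 0.53 (SE, adjusted p = 0.437), a 2.37-fold lower mean, with an interval from -2.50 to 0.010. Without LysM+/cre array 3 it was -0.78. As a covariate, the neutrophil score gave -0.63 (SE 0.24), the fibroblast and muscle score -0.60 (SE 0.89) and the monocyte score -1.88 (SE 1.055). Mgl2, named here after its values were seen, read 7.75, 9.33 and 7.77 without cre and 8.56, 7.70, 5.67 and 8.39 with cre, with LysM+/cre array 3 lowest here too and a difference of -0.71 ± 0.77 (SE, adjusted p = 0.738).

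**Figure D2:**
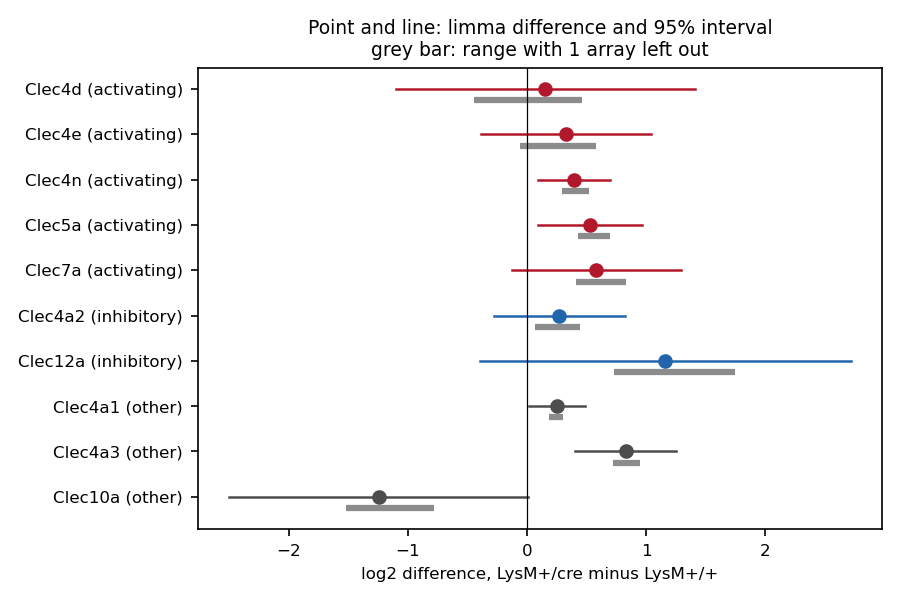
Log2 difference, LysM+/cre minus LysM+/+, of each lectin (point) with its 95% interval from limma (thin line) and the range when 1 of the 7 arrays was left out (grey bar). Clec4d and Clec4e have a grey bar that crosses 0, and Clec10a at -1.25 is the point on the lower side.

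Activating and inhibitory lectins were set side by side on each array by the mean deviation of their members. For the 5 activating lectins this was 0.14, -0.61 and -0.20 without cre and 0.052, 0.22, 0.24 and 0.17 with cre. For the 2 inhibitory lectins it was -0.67, 0.21 and -0.77 without cre and 0.66, 0.32, -0.27 and 0.51 with cre. In both roles the genotypes overlapped. Activating minus inhibitory gave 0.81, -0.82 and 0.56 without cre and -0.61, -0.10, 0.50 and -0.34 with cre, a difference of means of -0.32 with each genotype on both sides of 0. The inhibitory value is carried more by Clec12a, with its span of 3.08 over the 7 arrays, than by Clec4a2, with a span of 1.11. No test was made over the members, since they were chosen with results of these data known.

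The lectins with the widest span in their roles followed different genes over the 7 arrays. Likeness was the root mean square distance between values centred on each gene's own mean, over 18666 named genes outside the 10. Nearest to Clec4d were Fmnl2 (0.200), which encodes a formin of the actin cytoskeleton, Arl15 (0.225) and the chemokine gene Ccl5 (0.241), and its nearest lectin was Clec4e (0.363). Nearest to Clec12a were Ccr2 (0.313), the chemokine receptor of monocytes and a member of the monocyte list, Bank1 (0.397) and Lilra5 (0.467), and its nearest lectin was Clec7a (0.679). Ccr2 read 6.21, 8.21 and 7.53 without cre and 9.49, 8.21, 6.82 and 9.03 with cre, so that LysM+/cre arrays 1 and 4 were highest and LysM+/+ array 1 lowest for both genes. Nearest to Clec10a were the transporter gene Slco2b1 (0.312), the MHC class II accessory gene H2-DMb2 (0.372) and Postn (0.381), a matrix gene of the fibroblast list, while the nearest lectin, Clec7a, lay at 1.00, farther than a flat profile at 0.921. The distances are in log2 units and describe these arrays alone.

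**Figure D3:**
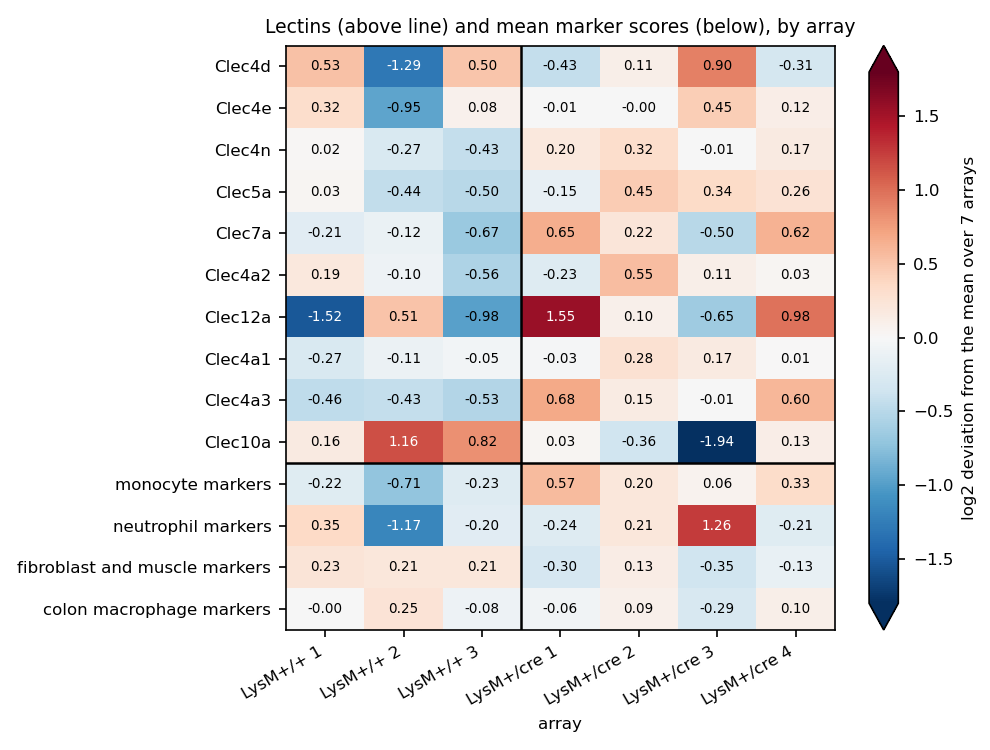
Log2 deviation of each lectin from its own mean over the 7 arrays (upper rows) and mean deviation of 4 marker lists (lower rows), with one column per array and the value written in each cell. LysM+/+ array 2 is low for Clec4d, Clec4e and the neutrophil score at -1.17, and LysM+/cre array 3 is high for these 3, at 1.26 for the score, and low for Clec10a.

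The genes through which these receptors signal were taken as a list of 28, of which 23 had a probe set of their own. No gene of it passed the adjusted threshold. Unadjusted, 5 of 23 were higher with cre (6.56% of all genes) and 0 lower, and the median difference was 0.057. Without LysM+/+ array 2 the count was 3 (9.96% of all genes). With all arrays, 6 of the 23 had no overlap between the genotypes (8.79% of all genes). Of these, 4 were higher with cre (5.23%) and 2 lower (3.56%), Relb at -0.18 and Nfatc2 at -0.47. Tyrobp, the DAP12 adaptor of Clec5a, read 11.72, 11.56 and 11.31 without cre and 11.91, 11.82, 11.87 and 11.76 with cre. These groups did not overlap, and the difference was 0.31 ± 0.10 (SE, adjusted p = 0.406). Fcer1g, the adaptor of Clec4d, Clec4e and Clec4n, read 12.26, 12.04 and 11.90 without cre and 12.27, 12.43, 12.37 and 12.26 with cre, with a difference of 0.27 ± 0.098 (SE, adjusted p = 0.415). Its groups overlapped by 0.0025 between LysM+/+ array 1 and LysM+/cre array 4. Downstream, Syk differed by 0.33 (SE 0.17, adjusted p = 0.495) and Card9 by 0.057 (SE 0.14, adjusted p = 0.891). The CARD9 partner Bcl10 was 0.21 higher (SE 0.051, adjusted p = 0.354) with no overlap, at 9.24 to 9.31 without cre and 9.48 to 9.53 with cre. Fgr, a SRC family kinase of myeloid cells, differed by 1.05 (SE 0.34, adjusted p = 0.401), and Plcg2, the phospholipase downstream of SYK, by 0.44 (SE 0.15, adjusted p = 0.406).

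On the inhibitory side, 4 of 11 phosphatases and other brakes were higher at an unadjusted p under 0.05 (6.56% of all genes) and 0 lower (4.93%), with a median of 0.26 and no gene past the adjustment. Ptpn6, the SHP-1 phosphatase that ITIM receptors recruit, read 9.52, 9.08 and 8.98 without cre and 9.92, 9.88, 9.59 and 9.83 with cre. Every LysM+/cre array lay above every LysM+/+ array, with a difference of 0.61 ± 0.15 (SE, adjusted p = 0.354). Csk, the kinase that restrains SRC family kinases, differed by 0.51 (SE 0.13, adjusted p = 0.354), Ptpn11 (SHP-2) by 0.43 (SE 0.13, adjusted p = 0.395) and the adaptor gene Dok2 by 0.51 (SE 0.18, adjusted p = 0.406), each with no overlap. Of the 11 genes, 4 were higher with no overlap (5.23% of all genes) and 0 lower (3.56%). Inpp5d, the lipid phosphatase SHIP-1, differed by -0.061, with an interval from -0.29 to 0.17.

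Of the other C-type lectin genes, 33 of 36 listed were measured, and 11 averaged higher and 22 lower with cre, with a median of -0.12. At an unadjusted p under 0.05, 1 was higher (6.56% of all genes) and 2 lower (4.93%), so that 3 of 33 lay near the 11.5% of all genes. The count was 5 without LysM+/+ array 1 (12.5% of all genes) and 1 without LysM+/+ array 2 (9.96%) or LysM+/cre array 4 (8.53%). Clec2d, a ligand of an NK cell receptor, differed by 0.60 (SE 0.19, adjusted p = 0.401), and the scavenger collectin gene Colec12 by -0.97 (SE 0.40, adjusted p = 0.431). Clec12b (-0.16, adjusted p = 0.416) and the langerin gene Cd207 (-0.21, adjusted p = 0.461) had small differences. In this list 4 genes had no overlap between the genotypes (8.79% of all genes). Clec4a4 (0.33) and Clec14a (0.0945) were higher with cre (5.23%), and Clec12b and Colec12 were lower (3.56%). Clec12b lay at 3.89 to 4.19 and Clec14a at 4.51 to 4.71, where the median gene mean was 5.55. No test compared this list with the 10 lectins.

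Genes that SYK and CARD9 signalling is known to induce had differences of both signs. Of 21 such genes, 9 averaged higher and 12 lower, with a median of -0.054. Unadjusted, 1 was higher (6.56% of all genes) and 3 lower (4.93%) at a p under 0.05, and without LysM+/+ array 2 the count of 4 was 8 (9.96% of all genes). The early transcription factor gene Egr1 differed by -1.29 (SE 0.19, adjusted p = 0.306), the chemokine gene Ccl2 by -0.999 (SE 0.26, adjusted p = 0.362) and the cytokine gene Il6 by -0.90 (SE 0.36, adjusted p = 0.427). Pla2g4a, which encodes cytosolic phospholipase A2, differed by 0.47 (SE 0.12, adjusted p = 0.362).

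**Figure D4:**
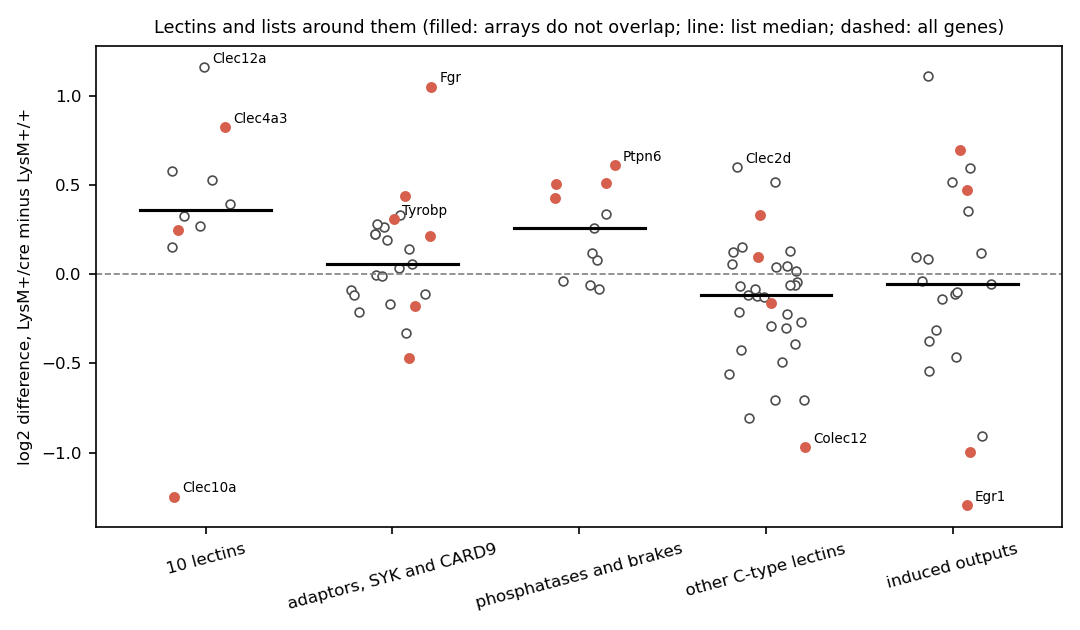
Log2 difference, LysM+/cre minus LysM+/+, of each gene (points) in the 10 lectins and the 4 lists around them, filled where the arrays of the genotypes do not overlap, with the list median as a line and the median of all genes dashed. The medians are 0.36 for the lectins, 0.057 for the adaptors, SYK and CARD9, 0.26 for the phosphatases and brakes, -0.12 for other C-type lectins and -0.054 for the induced outputs.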

How the data were processed

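Total RNA of 7 sorted colon macrophage samples was hybridised to 1 array each, 3 LysM+/+ and 4 LysM+/cre. The values deposited by the authors are log2 intensities per probe set, per the series' design text from Affymetrix Expression Console, and the submitters' processing notes add Transcriptome Analysis Console. Neither version nor summarisation method is stated there. Of 41345 probe sets, 23521 had exactly 1 symbol, 1814 several and 16010 none listed. Where a gene had more than 1, that of the highest mean was kept. All 22180 genes were fitted with limma 3.58.1 in R 4.3.3 (lmFit, eBayes), two-sided, with no covariate, Benjamini-Hochberg adjustment over all genes and a threshold of 0.05. Precision is limited by how few arrays there were. The fit was tested on 20 simulated data sets of this comparison with 22180 genes, where 75.9% of the 2-fold and 94% of the 4-fold changes were recovered, with 5.21% of calls false. The noise was drawn separately for each gene, the changes were put into 200 genes drawn from all, and shifts shared by many genes were not simulated. These shares are therefore not a rate for the lectins, of which Clec4d, Clec10a and Clec12a had SEs of 0.53, 0.53 and 0.66.

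The lectins, their roles and all lists were chosen with earlier results of these data known. Named were all 10 lectins, Rictor, Lyz2, 6 set adaptors and enzymes, the 4 genes of smallest p in each list, the 3 genes nearest to the widest lectin of each role, and set cell type markers. Promoter sequences came from RefSeq (GRCm38.p6). The array's own build is not stated, and gene positions are used for order alone. Figures were drawn with matplotlib 3.10.9. The alternatives tried were equal medians, quantile normalization, removal of dim genes, averaged probe sets, unmoderated variance, array weights, each of 3 marker scores as a covariate, a replicate block and removal of each array.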

Additional observations from a re-analysis of the deposited data

Results flagged for a closer look

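Of 54 values checked on the 4 LysM+/cre arrays, 3 had 1 array far from the others, where chance alone gives about 1 in 20. Card9 lay at 7.01 on LysM+/cre array 3 against 7.10 to 7.12 on the others. Rictor lay at 8.25 on the same array against 7.72 to 7.80. The eosinophil and mast cell score was 0.054 on LysM+/cre array 4 against -0.0081 to -0.0003 on the others. None of the 10 lectins met this criterion.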

How the results depend on the processing

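Of the 10 lectins, 8 kept the sign of their difference under all 17 alternatives, and none passed an adjusted p of 0.05 under any (smallest adjusted p for a lectin = 0.19). The exceptions were Clec4d and Clec4e. Clec4d was at -0.46 (SE 0.22) with the neutrophil score and -0.36 (SE 1.07) with the monocyte score as a covariate. With the fibroblast score Clec4d was at -0.040 (SE 0.94), and it ran from -0.45 to 0.46 over the removals of 1 array. Clec4e was at -0.29 (SE 0.55) with the monocyte score and ran from -0.057 to 0.58 over the removals of 1 array. The count of lectins at an unadjusted p under 0.05 was 2 without variance moderation (7.91% of all genes), 1 with the monocyte score (4.19%), 2 with the fibroblast score (6.06%) and 2 to 5 when 1 array was left out (7.63% to 12.5%). With the neutrophil score it was 5 (11.7%). The count without overlap was 3 to 5 when 1 array was left out (11% to 20.1% of all genes). The median of the 10 lectins was 0.68 with the fibroblast score and 0.34 to 0.55 when 1 array was left out, and that of the activating lectins was 0.11 with the monocyte score. Counts at an unadjusted p under 0.05 when 1 array was left out were 3 to 6 for the signalling list, 1 to 5 for other C-type lectins and 3 to 8 for the induced genes. Why these values moved was not tested. Over all genes, a variance without moderation called 2 genes at an adjusted p of 0.05, neither of them a lectin, and every other setting called 0.

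The deviations of same-numbered arrays from their group means correlated at -0.11, 0.12 and 0.10 over all genes. Differently numbered arrays were not compared, so whether the replicate numbers pair the samples is not known. With the number as a replicate block, which leaves LysM+/cre array 4 without a partner, 0 lectins passed the adjusted threshold, 3 had an unadjusted p under 0.05 and the median was 0.36. With 7 arrays the precision is limited by their number. All 10 lectins had the mean of their higher group above the median gene.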
